A study of Mus musculus with 12 samples.

Results

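The genes described here are those of the phosphofructokinase step of glycolysis: the 3 phosphofructokinase isoenzymes Pfkm, Pfkl and Pfkp, the 4 bifunctional PFKFB isoenzymes Pfkfb1, Pfkfb2, Pfkfb3 and Pfkfb4, and the phosphatase Tigar. They were chosen by gene symbol, and 8 of the 43686 rows of the count table carried them. For 7 of the 8 the gene name column gave the symbol, and the row of Pfkfb2, which has no gene name, was found by the symbol in the table's own pathway annotation. RNA-seq was made from the ventricular wall of 12 mice, C57BL/6 by the labels and C57BL/6J by the study's methods. The 6 KO mice carried Sdhaf4 fl/fl, with loxP sites around exons 1 and 2, and Ckmm-Cre, a Cre recombinase under the muscle creatine kinase promoter. This promoter is active in cardiac and skeletal muscle, so the other cells of the ventricle keep their floxed alleles. The 6 WT mice were Sdhaf4 fl/fl littermates without Cre, so the Cre transgene itself differed between the groups together with the deletion. The labels give 2 months as the age of all mice, the study's reporting summary states that omics used males aged 3 weeks or aged 8 weeks, and its main text gives 6 weeks.

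Phosphofructokinase (PFK) turns fructose 6-phosphate into fructose 1,6-bisphosphate, the committed and most regulated step of glycolysis, and works as a tetramer of the muscle (M), liver (L) and platelet (P) subunits, alone or mixed. Fructose 2,6-bisphosphate is its strongest allosteric activator, and each PFKFB isoenzyme has a kinase domain that makes this metabolite and a phosphatase domain that removes it. TIGAR, found as a p53 target, removes fructose 2,6-bisphosphate through a phosphatase activity of its own. In the adult heart muscle the M subunit and the PFKFB2 isoenzyme are known as the main forms. SDHAF4 is an assembly factor of succinate dehydrogenase, complex II of the respiratory chain, and the comparison asked how the expression of these glycolytic control genes differed in hearts that lack it.

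Library totals were 23747014 to 27159228 counts in WT and 26542930 to 31393393 in KO. Levels are CPM, the reads of a gene relative to the library's total, after TMM scaling. Differences were tested by edgeR (quasi-likelihood), and p-values were adjusted by Benjamini-Hochberg over the 17155 rows that passed the filter on low counts. All 8 genes passed. Sdhaf4 itself had a median of 26.7 CPM in WT (14.3 to 30.3) and of 2.35 CPM in KO (2.25 to 2.73), a log2 fold change of -3.39 ± 0.16 (SE, adjusted p = 1.95e-10). The genotype moved much of the transcriptome: 25.6% of the rows tested were higher in KO at an adjusted p under 0.05, 25.5% were lower, and 51.1% passed in either direction. Of the 8 genes, 4 were higher (Pfkl, Pfkp, Pfkfb3 and Tigar), 3 were lower (Pfkm, Pfkfb1 and Pfkfb2) and 1, Pfkfb4, did not pass. At a stricter threshold that also asked for more than 1 on the log2 scale, with adjusted p under 0.005, the same 4 genes were called higher and 1, Pfkfb1, was called lower, beside 5.36% and 4.87% of all rows.

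The muscle isoenzyme fell and the other PFK isoenzymes rose. Pfkm, encoding the M subunit (chromosome 15, 103469277 to 103509753, plus strand, in the C57BL/6NJ coordinates of the files), ranged from 825 to 937 CPM in WT with a median of 883, and from 584 to 742 CPM in KO with a median of 663. Every KO library was below every WT library, and the change was modest, a log2 fold change of -0.42 ± 0.07 (SE, adjusted p = 5.09e-05). Pfkl, encoding the L subunit (chromosome 10, 81172580 to 81206217, minus strand), ranged from 77.2 to 97.8 CPM in WT with a median of 85.5, and from 158 to 209 CPM in KO with a median of 188. The groups did not overlap, and the log2 fold change was 1.10 ± 0.07 (SE, adjusted p = 2.9e-09), a 2.15-fold rise. Pfkp, encoding the P subunit (chromosome 13, 3345572 to 3409362, minus strand), ranged from 66.0 to 92.0 CPM in WT with a median of 74.9, and from 268 to 369 CPM in KO with a median of 307. This was the largest rise among the 8 genes, a log2 fold change of 2.04 ± 0.09 (SE, adjusted p = 3.39e-11) or 4.10-fold, and again no KO library came near the WT range. Over all rows tested, groups that did not overlap were found with KO higher in 14.9% and with KO lower in 15.2%. In bulk tissue, fewer cells of a type and less RNA per cell cannot be told apart. Whether reads were counted by strand is not given in the sources used here, so reads where rows overlap may be lost or shared. The Pfkp row overlaps Pitrm1 on the opposite strand by 372 bases, and 17.1% of the 50-base words of its longest GENCODE coding transcript also occur in Pitrm1, which had 1602 to 1879 counts in WT and 1323 to 1601 in KO.

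**Figure D1:**
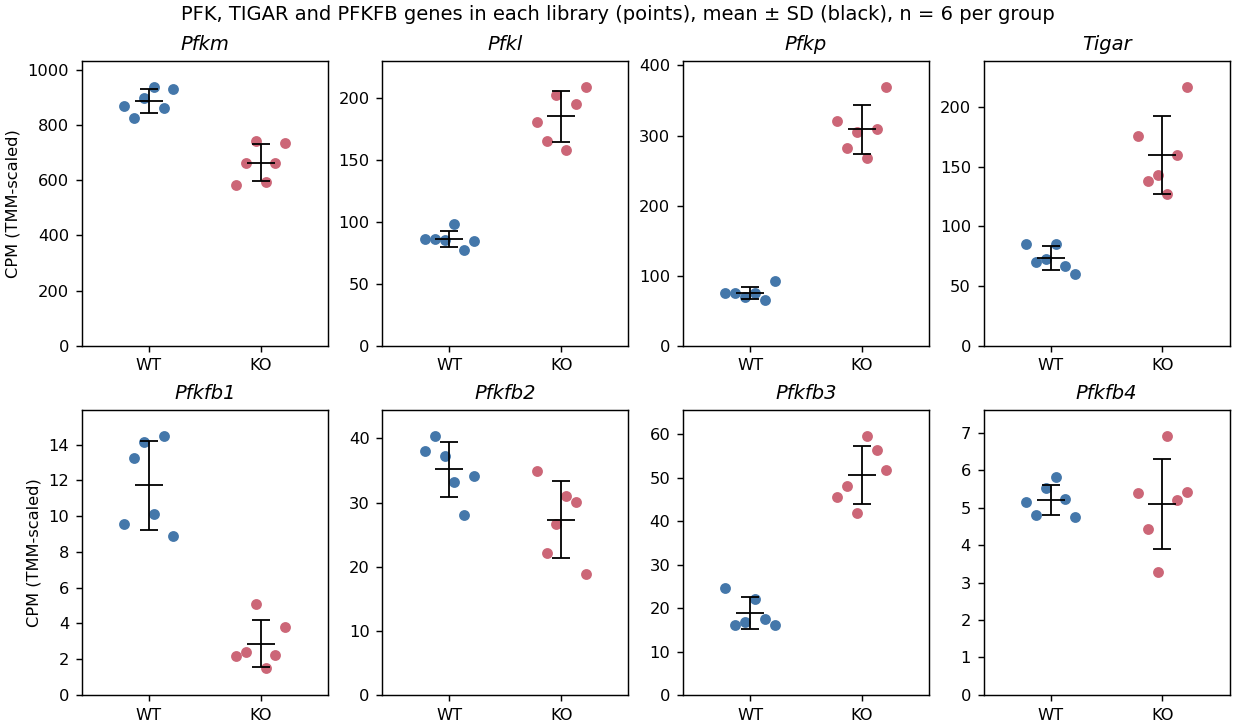
TMM-scaled CPM (vertical axes, each from 0 on its own scale) of the 8 genes in the 6 WT and 6 KO libraries, with 1 point per library and black bars for the mean ± SD. The KO points lie above all WT points for Pfkl, Pfkp, Tigar and Pfkfb3, below all WT points for Pfkm and Pfkfb1, and overlap with them for Pfkfb2 and Pfkfb4.

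Per length, Pfkm remained the leading PFK transcript in both genotypes. To compare isoenzymes, counts were divided by the transcript length deposited with each row, and each isoenzyme was taken as a share of the sum over Pfkm, Pfkl and Pfkp. Pfkm took 88.4% ± 0.603 (SD, n = 6) of the PFK sum in WT and 65.9% ± 2.04 in KO. The share of Pfkl went from 6.81% ± 0.433 to 14.6% ± 0.722. That of Pfkp went from 4.76% ± 0.467 to 19.5% ± 1.55, so that the P form passed the L form: the ratio of Pfkp to Pfkl was 0.617 to 0.874 in WT libraries and 1.20 to 1.42 in KO libraries. All 3 differences gave p = 0.00216 in a two-sided exact permutation test over the 12 libraries, the smallest p that 6 against 6 can reach, and 0.00302 after Benjamini-Hochberg adjustment over the 7 isoform shares tested. Shares within a family sum to 100%, so the tests of its members are not independent of each other. The groups already did not overlap in CPM for Pfkm, Pfkl and Pfkp, so these share tests largely restate the differences of the single genes.

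**Figure D2:**
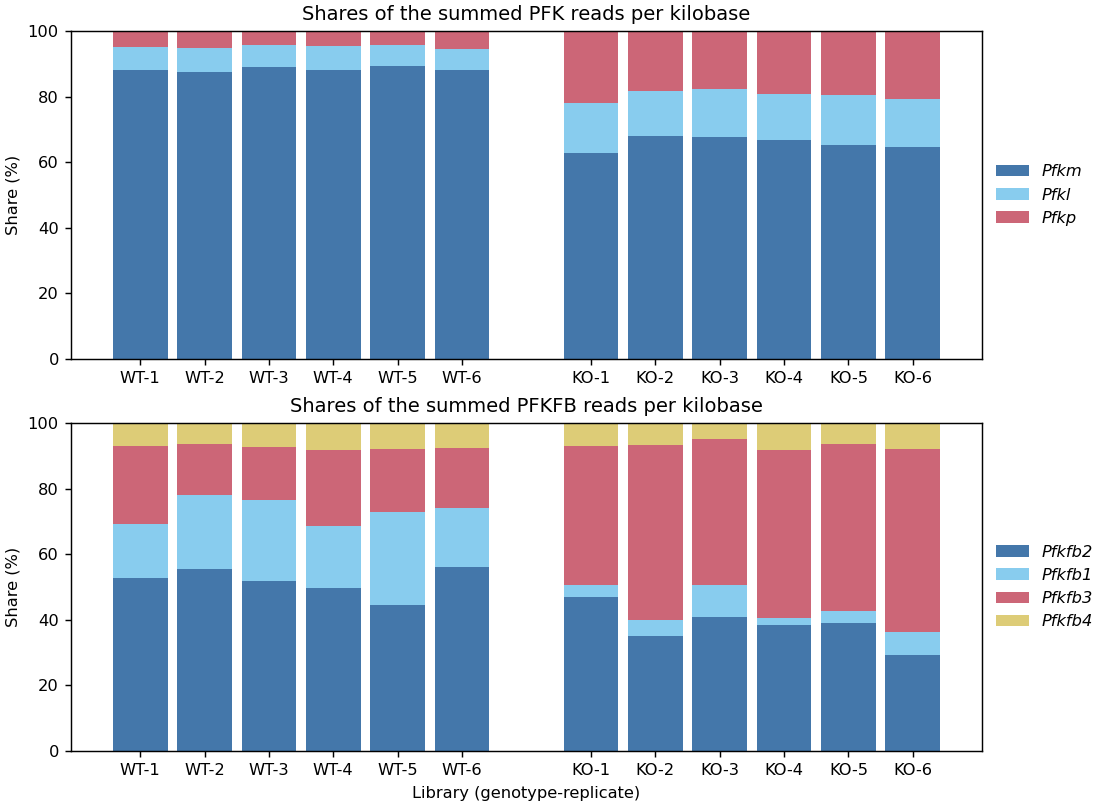
Stacked bars of the share (%) of each isoenzyme in the summed PFK reads per kilobase (upper panel) and in the summed PFKFB reads per kilobase (lower panel), with 1 bar per library, WT on the left and KO on the right. The Pfkm share lies between 87.7% and 89.3% in WT and between 62.7% and 68.2% in KO, and the Pfkfb3 share between 15.5% and 23.9% in WT and between 42.5% and 55.7% in KO.

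The summed PFK level depended on the length used. With the deposited length column, the sum of the 3 isoenzymes was 339 ± 16.7 CPM per kilobase (SD, n = 6) in WT and 340.2 ± 32.0 in KO, a ratio of 1.00: the fall of the abundant Pfkm and the rises of Pfkl and Pfkp came to nearly the same amount. With the longest coding transcript of GENCODE M21 as the length the ratio was 1.01. In the deposited FPKM the sum was 408 ± 23.9 in WT and 544 ± 39.9 in KO, a ratio of 1.33, and all 6 KO libraries were above all WT libraries. The lengths behind the FPKM equal the length column for Pfkm (2957 bases) but are shorter than it for Pfkl (1354 against 3730) and Pfkp (1675 against 4663), which gives the 2 rising isoenzymes more weight. The increase in the Pfkp share was 14.7 percentage points with the length column and 22.8 points in FPKM. These values do not settle whether the summed PFK message rose. The isoenzyme shares shifted in the same direction on each of these scales. For Pfkm, which fell, and Pfkp, which rose most, any fixed set of lengths gives this direction, so it is no separate support.

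**Figure D3:**
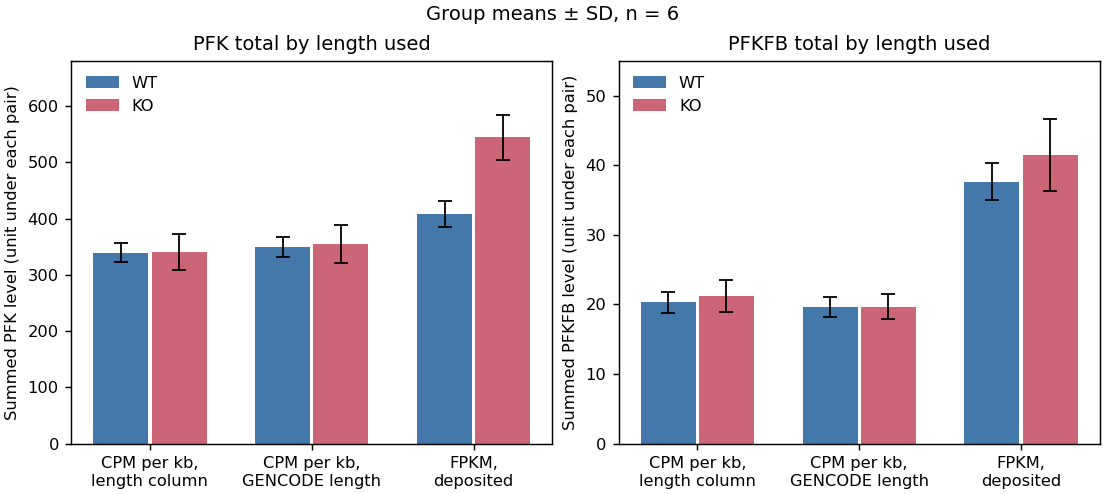
Summed level of the PFK isoenzymes (left) and PFKFB isoenzymes (right) as group means ± SD over 6 libraries, WT in blue and KO in red, with reads per kilobase by the deposited length column, by GENCODE transcript length, and as deposited FPKM. The PFK bars of WT and KO are level on the first 2 scales (339 and 340.2 CPM per kilobase by the length column) and apart in FPKM (408 and 544).

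Among the PFKFB isoenzymes the inducible form, Pfkfb3, rose and Pfkfb1, known from liver and skeletal muscle, fell. Pfkfb3, whose product has a high kinase relative to phosphatase activity (chromosome 2, 9119227 to 9210529, minus strand), ranged from 16.2 to 24.7 CPM in WT with a median of 17.1, and from 41.9 to 59.6 CPM in KO with a median of 50.04. The groups were apart, with a log2 fold change of 1.42 ± 0.12 (SE, adjusted p = 1.23e-07) or 2.68-fold. Pfkfb1, the form of liver and skeletal muscle (chromosome X, 152483479 to 152543704, plus strand), ranged from 8.87 to 14.5 CPM in WT with a median of 11.7, and from 1.51 to 5.07 CPM in KO with a median of 2.31. Its log2 fold change of -2.04 ± 0.25 (SE, adjusted p = 1.01e-05) left the KO libraries with 44 to 153 counts, against 226 to 367 in WT. Both groups held a wide spread in this gene, but they did not overlap. The genomic span of the row overlaps that of Apex2 on the opposite strand by 1640 bases (186 to 271 counts in WT, 107 to 148 in KO). Of the 1823 50-base words of the longest GENCODE coding transcript of Pfkfb1, 0 occur in transcripts of other genes.

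Pfkfb2, the cardiac form, whose kinase is activated when AKT or AMPK phosphorylates it (chromosome 1, 139069608 to 139110456, minus strand), changed little. Its level was 28.1 to 40.4 CPM in WT with a median of 35.7, and 18.9 to 35.0 CPM in KO with a median of 28.4, and 3 of the 6 KO libraries lay within the WT range. The log2 fold change of -0.36 ± 0.13 (SE) had an adjusted p of 0.0356 by edgeR, and this call was lost in 8 of 21 alternative analyses. Scaling by library size alone gave an adjusted p of 0.0522 and omitting the filter on low counts 0.0804. Leaving out WT replicate 1, 2, 3 or 6 or KO replicate 2 or 3 gave 0.051 to 0.0763. The genomic span of the row overlaps Yod1 on the opposite strand by 7794 bases (200 to 271 counts in WT, 165 to 274 in KO). The row also overlaps the annotated gene Gm29427 on the same strand, which had 1 to 11 counts in WT and 0 to 5 in KO. Of the 50-base words of the longest GENCODE coding transcript of Pfkfb2, 25.1% are shared with Gm29427. Reads there could be left uncounted or assigned to either row, so the level of Pfkfb2 is uncertain.

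Pfkfb4, best known from testis (chromosome 9, 113972778 to 114014137, plus strand), was the lowest PFKFB transcript in WT. It ranged from 4.74 to 5.80 CPM in WT with a median of 5.19, and from 3.28 to 6.91 CPM in KO with a median of 5.31. The KO values spread on both sides of the WT range, and no difference was called (log2 fold change -0.03 ± 0.15, SE, adjusted p = 0.892). The sign of this small value turned without KO replicate 2 (0.01) or KO replicate 3 (0.07).

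In shares of the PFKFB sum per kilobase by the length column, Pfkfb2 led in WT, and Pfkfb3 led in 5 of the 6 KO libraries. In KO replicate 1 Pfkfb2 still led, at 46.9% against 42.5% for Pfkfb3. This depended on the length used: in FPKM and with GENCODE lengths Pfkfb3 was above Pfkfb2 in all 6 KO libraries. With GENCODE lengths Pfkfb2 was above Pfkfb1 in only 5 of the 6 WT libraries. The shares that follow are by the length column. Pfkfb3 went from 19.4% ± 3.44 (SD, n = 6) to 49.7% ± 5.11, and Pfkfb1 from 21.6% ± 4.53 to 5.21% ± 2.74, each with p = 0.00216 in the exact permutation test (0.00302 adjusted over 7 shares). Pfkfb2 went from 51.7% ± 4.26 to 38.2% ± 5.94 (exact permutation p = 0.00433, 0.00505 adjusted), with ranges that overlapped between 44.4% and 46.9%. The Pfkfb4 share was 7.37% ± 0.718 in WT and 6.85% ± 1.21 in KO (exact permutation p = 0.4). Within a library, Pfkfb3 stood at 0.663 to 1.45 times Pfkfb1 in WT and at 4.62 to 22.02 times Pfkfb1 in KO, per kilobase. Leaving the uncertain Pfkfb2 row out of the sum, an alternative chosen after seeing the data, gave a rise of 40.3 percentage points for Pfkfb3, a difference of -36.1 points for Pfkfb1 and of -4.16 points for Pfkfb4 (exact permutation p = 0.00216 for each). The summed PFKFB level was 20.3 ± 1.51 CPM per kilobase (SD, n = 6) in WT and 21.2 ± 2.26 in KO, a ratio of 1.04, with a ratio of 1.00 by GENCODE length and 1.10 in FPKM. Groups overlapped on each of these scales.

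Tigar, which acts against the PFKFB kinases, rose as well (chromosome 6, 133973316 to 133998573, minus strand). It ranged from 59.8 to 85.5 CPM in WT with a median of 71.7, and from 127 to 217 CPM in KO with a median of 151. No KO library fell into the WT range, and the log2 fold change was 1.12 ± 0.13 (SE, adjusted p = 8.35e-06), or 2.18-fold. An unnamed row on the opposite strand overlaps Tigar and had 2 to 7 counts in WT and 13 to 29 in KO. Per kilobase, Tigar stood at 0.884 to 1.17 times the PFKFB sum in WT and at 1.43 to 3.06 times that sum in KO. Pfkfb3 and Tigar both rose, and the ratio of Pfkfb3 to Tigar per kilobase overlapped between genotypes, at 0.175 to 0.220 in WT and 0.182 to 0.358 in KO.

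Ordered by CPM per kilobase (length column), the WT levels were Pfkm (300 ± 14.8, SD, n = 6), Pfkl (23.1 ± 1.78), Tigar (20.1 ± 2.82), Pfkp (16.2 ± 1.93), Pfkfb2 (10.5 ± 1.3), Pfkfb1 (4.38 ± 0.931), Pfkfb3 (3.93 ± 0.752) and Pfkfb4 (1.49 ± 0.117). In this order the ranges of Pfkl and Tigar, of Tigar and Pfkp, and of Pfkfb1 and Pfkfb3 overlapped. The KO order was Pfkm (224 ± 22.6), Pfkp (66.3 ± 7.55), Pfkl (49.6 ± 5.49), Tigar (43.8 ± 8.96), Pfkfb3 (10.5 ± 1.4), Pfkfb2 (8.17 ± 1.79), Pfkfb4 (1.46 ± 0.345) and Pfkfb1 (1.07 ± 0.49). There the ranges of Pfkl and Tigar, of Pfkfb3 and Pfkfb2, and of Pfkfb4 and Pfkfb1 overlapped. Pfkp moved from the fourth to the second place and Pfkfb3 from the seventh to the fifth. In FPKM, where the lengths differ, Tigar came after Pfkp in WT, and the KO ranges of Pfkm and Pfkp overlapped. With GENCODE lengths, Pfkfb1 and Pfkfb4 changed places at the end of the KO order.

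The KO libraries differed among themselves. KO replicate 6 had the highest Pfkp, Pfkl and Tigar and the lowest Pfkfb2 of its group. KO replicate 4 had the lowest Pfkp, Pfkl, Tigar and Pfkfb1 and the highest Pfkfb3 and Pfkfb4. KO replicate 3 had the highest Pfkm and Pfkfb1 and the lowest Pfkfb3 and Pfkfb4. In WT, replicate 6 had the highest Pfkp and the lowest Tigar, Pfkfb1, Pfkfb4 and Sdhaf4.

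Upstream sequences are shown for the 4 genes called higher, to show where they hold the core letters of the hypoxia response element, which is known from promoters of glycolytic genes. RefSeq sequences of the mouse build GRCm38.p6 were found for all 8 genes, and the 250 bases before each annotated start were searched on both strands. The letters searched were those of the core in its form ACGTG and in its form with another first base, GCGTG. The E-box motif CACGTG, which contains the first of these, was searched as well. Each sequence runs 5′ to 3′ on the strand of its gene, with every match in capitals. They lie at chr13:6648772-6649021 (Pfkp, minus strand), chr10:78009808-78010057 (Pfkl, minus strand), chr2:11553930-11554179 and chr2:11502091-11502340 (the 2 annotated starts of Pfkfb3, minus strand) and chr6:127109553-127109802 (Tigar, minus strand).
Pfkp: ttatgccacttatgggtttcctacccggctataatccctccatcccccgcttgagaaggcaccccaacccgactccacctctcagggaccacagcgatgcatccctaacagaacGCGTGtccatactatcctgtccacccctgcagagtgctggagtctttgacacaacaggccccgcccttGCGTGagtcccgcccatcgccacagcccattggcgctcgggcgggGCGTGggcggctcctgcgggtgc
Pfkl: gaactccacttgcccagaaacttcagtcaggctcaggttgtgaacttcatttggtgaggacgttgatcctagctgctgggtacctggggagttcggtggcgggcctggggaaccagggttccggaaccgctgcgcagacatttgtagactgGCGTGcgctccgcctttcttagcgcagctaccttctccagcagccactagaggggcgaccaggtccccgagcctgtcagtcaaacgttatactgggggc
Pfkfb3, first start: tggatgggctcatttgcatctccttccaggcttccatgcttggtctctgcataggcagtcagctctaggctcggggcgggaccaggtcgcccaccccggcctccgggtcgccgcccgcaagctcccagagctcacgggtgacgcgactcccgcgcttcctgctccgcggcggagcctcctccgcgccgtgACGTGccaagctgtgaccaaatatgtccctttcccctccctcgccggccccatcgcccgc
Pfkfb3, second start: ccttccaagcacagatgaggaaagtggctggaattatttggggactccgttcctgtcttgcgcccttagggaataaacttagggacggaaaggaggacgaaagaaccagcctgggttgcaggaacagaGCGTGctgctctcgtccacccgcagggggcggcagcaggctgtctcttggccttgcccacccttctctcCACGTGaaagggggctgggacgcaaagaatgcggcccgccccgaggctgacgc
Tigar: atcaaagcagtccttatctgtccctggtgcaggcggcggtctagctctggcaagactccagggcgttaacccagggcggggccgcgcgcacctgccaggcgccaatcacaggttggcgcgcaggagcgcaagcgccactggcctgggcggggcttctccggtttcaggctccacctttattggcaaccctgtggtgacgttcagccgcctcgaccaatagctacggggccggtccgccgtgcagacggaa

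Pfkp held GCGTG 3 times, with the first base 136, 68 and 23 bases before the start. Pfkl held GCGTG once, 99 bases before the start. For Pfkfb3, ACGTG stood 60 bases before the first start, and before the second start stood CACGTG at 53 bases and GCGTG at 122 bases. None of these letters was found before Tigar. The genes called lower held them too: Pfkm in 3 of its 4 annotated upstream stretches, Pfkfb1 in 1 of 4 and Pfkfb2 in 3 of 3, and Pfkfb4, not called, in its 1 stretch. Of all 32851 upstream stretches in the table, 38.6% held the core in either form. The form ACGTG was in 16.6%, the form GCGTG in 28.2%, and the E-box in 6.02%. Matches are letters in a window, and no binding was measured.

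Most other glycolytic enzymes were higher in KO. Of 21 further glycolytic enzymes, 16 were tested, of which 12 were higher in KO, 3 were lower and 1 did not pass. Their median log2 fold change was 0.71, beside 0.00 over all rows tested. Eno1, the enolase of most tissues, rose from 86.0 ± 7.35 CPM (SD, n = 6) to 250.1 ± 22.1 CPM (log2 fold change 1.54 ± 0.07, SE, adjusted p = 3.56e-11). Among those that fell, and named after their values were seen, were the muscle enolase Eno3 (log2 fold change -0.67, adjusted p = 3.4e-06) and the heart-type lactate dehydrogenase Ldhb (-0.71, adjusted p = 6.36e-09).

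Of the 7 gluconeogenic genes, 3 were tested, of which 2 were lower in KO, none was higher and 1 did not pass (median log2 fold change -0.30). Fbp2, the muscle fructose-bisphosphatase, whose reaction opposes that of PFK, fell from 48.0 ± 4.8 CPM (SD, n = 6) to 7.22 ± 4.91, a log2 fold change of -2.73 ± 0.35 (SE, adjusted p = 5.39e-05). The groups were far apart, at 41.1 to 52.99 CPM in WT and 3.44 to 16.2 CPM in KO. G6pc3, a ubiquitous glucose-6-phosphatase, fell by 0.30 on the log2 scale (adjusted p = 0.000825 by edgeR). In the pentose phosphate pathway, into which glucose 6-phosphate flows when PFK is slow, all 7 genes were tested, of which 3 were higher, 1 was lower and 3 did not pass (median log2 fold change 0.17). The larger rises were those of G6pdx, the entry enzyme (log2 fold change 0.55), and Pgd (0.43).

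**Figure D4:**
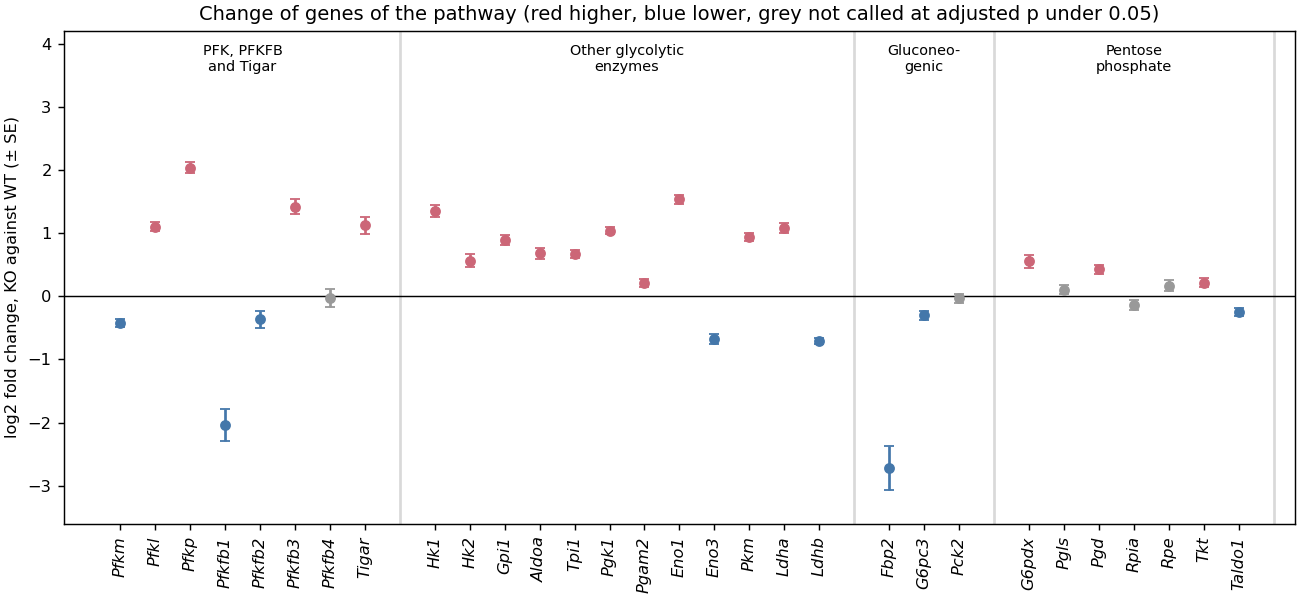
Log2 fold change of KO against WT with its SE (vertical axis) for the 8 genes and for the genes of 3 pathway lists with a mean of at least 5 CPM in both groups, with red for higher, blue for lower and grey for not called at an adjusted p under 0.05. Pfkp (2.04) and Eno1 (1.54) stand highest in their groups, and Pfkfb1 (-2.04) and Fbp2 (-2.73) lowest in theirs.

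Because Tigar was found as a p53 target, 18 other p53 targets were examined. In KO 10 were higher, 3 were lower and 5 did not pass, with a median log2 fold change of 0.29. Over all rows tested, 25.6% were higher and 25.5% lower. The 3 lower were Btg2 (log2 fold change -0.67), Eda2r (-0.58) and Ccng1 (-0.24). Mdm2, Sesn1, Bbc3, Aen and Ei24 did not pass. Activity of p53 was not tested. Phlda3, an inhibitor of AKT, rose from 14.2 ± 0.871 CPM (SD, n = 6) to 41.2 ± 8.02 (log2 fold change 1.54 ± 0.11, SE, adjusted p = 2.64e-08), and Trp53inp1 rose by 0.90 on the log2 scale (adjusted p = 9.03e-05 by edgeR).

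Markers of cell types moved with the genotype. All 7 fibroblast markers were higher in KO, with a summed level of 1379 to 1613 CPM in WT and 2291 to 4236 CPM in KO. Of 6 endothelial markers 4 were higher (1257 to 1416 CPM in WT, 1371 to 1677 in KO), and of 5 mural markers 2 were higher. Of 8 cardiomyocyte markers 5 were lower and none was higher, with a sum of 49288 to 53929 CPM in WT and 39599 to 55193 CPM in KO. Pfkp and Pfkl are also known from cells other than myocytes, and the part of these markers in the isoenzyme changes was not tested. Platelet markers, relevant to the P subunit, summed to 9.83 to 13.9 CPM in WT and 8.69 to 14.0 CPM in KO, with 1 of 4 tested higher and 1 lower. Skeletal muscle markers, relevant to Pfkfb1, summed to 1.25 to 10.2 CPM in WT and 0.828 to 4.57 CPM in KO, with 1 of 2 tested lower. Of 5 tested macrophage markers 2 were lower. None of the 3 tested lymphocyte markers or the 2 tested erythroid markers passed the test, and adipocyte markers summed to at most 1.11 CPM. No listed marker with a row was at 0 in all 12 libraries.

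The genes with the most similar pattern were searched among 10133 annotated genes with a mean of at least 5 CPM, by Pearson's r of log2 CPM over the 12 libraries. For genes that differ between the genotypes, this r largely reflects that difference, which does not hold for Pfkfb4. The genes named have the highest r of 10133, so their r are high in part by this choice. Nearest to Pfkl were 2 enzymes from the end of glycolysis, Pkm (r = 0.996, and 0.92 for the deviations from the genotype means) and Ldha (0.99 and 0.82). Nearest to Pfkp were Eno1 (0.996 and 0.81) and Grin2c (0.99 and 0.87), a glutamate receptor subunit. Pfkm was nearest to the desmosomal cadherin Dsg2 (0.98 and 0.92) and to Cecr2 (0.98 and 0.88). Pfkfb1 was nearest to the peroxiredoxin Prdx2 (0.99 and 0.91) and to Cox4i1, a subunit of cytochrome c oxidase (0.99 and 0.91). Pfkfb3 was nearest to Kbtbd11 (0.99 and 0.85) and Mtmr2 (0.98 and 0.82), and Tigar to genes that include the phosphoglucomutase Pgm2 (0.98 and 0.88). For Pfkfb2 the nearest were Dcakd (0.94 and 0.90) and N4bp1 (0.88 and 0.82), and for Pfkfb4 they were Pld4 (0.88 and 0.89) and Lap3 (0.87 and 0.88). These r are given as a description over libraries that share genotype and depth.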

How the data were processed

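Poly-A RNA of the ventricular wall was sequenced from 6 WT and 6 KO mice. The authors deposited the number of reads that HTSeq assigned to each gene as raw counts, and FPKM computed from counts, a gene length and the library size. The submitters' processing notes name HISAT2 2.0.5 and mm10, whereas the gene identifiers belong to the C57BL/6NJ assembly, and the strand setting of counting is not stated. The FPKM length is under 99% of the deposited length column for 61.9% of 17292 rows with at least 120 counts. The authors' fold changes, p-values and group means were not used. Groups came from the sample labels. The legend of the study's supplementary RNA-seq figure gives n = 6. Each library was taken as a separate animal, which the study's methods do not state.

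Counts were fitted in R 4.3.3 with edgeR 4.0.16 (filterByExpr, TMM, robust quasi-likelihood test, Benjamini-Hochberg adjustment over 17155 rows, threshold 0.05). In simulated data, 200 of 16937 genes were changed by 1 on the log2 scale. The script recovered 149 of them and made 6 false calls. Far fewer genes were changed there than were called here, so the error rate in these data was not tested. Isoform shares were tested with exact permutation tests. Log2 CPM for pattern likeness used a prior count of 2. Symbols missing from the name column were taken from the pathway annotation where exactly 1 unnamed row carried them (169 rows). Named genes were the 8 genes, Sdhaf4, per pathway list the 2 called genes of at least 5 CPM with the largest absolute fold change, and per gene the 2 of most similar pattern, of which some are not reported here. Gapdh, Pgam1, Lyz2, Hba-a2, Hbb-bs and Hbb-bt had no single row. The genes and lists were chosen with earlier results of these data known. Alternatives were other normalizations, filters and tools (limma-voom with limma 3.58.1, DESeq2 1.42.0), a replicate block, other lengths and leaving out each library. The chi-square per degree of freedom between replicates was 7.41 to 52.6, and each library was counted as 1 sample. Precision at low levels is limited by counting error.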

Additional observations from a re-analysis of the deposited data

Results flagged for a closer look

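The level of Pfkp in WT replicate 6 was 92.0 CPM, far above the other WT libraries (66.0 to 75.4 CPM), and the gap to the nearest of them was 0.639 of the group's range, beyond the limit of Dixon's test. Without this library the log2 fold change of Pfkp was 2.10 (adjusted p = 3.3e-11 by edgeR).

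The level of Sdhaf4 in KO replicate 1 was 2.73 CPM, above the other KO libraries (2.25 to 2.41 CPM), with a gap of 0.659 of the range. Of 32 groups examined 2 stood out in this way, and chance gives about 1.6.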

How the results depend on the processing

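Pfkm, Pfkl, Pfkp, Pfkfb1, Pfkfb3 and Tigar kept their direction and their call in all 21 alternative fits, and their log2 fold changes without single libraries were -0.46 to -0.38, 1.06 to 1.15, 1.97 to 2.10, -2.29 to -1.90, 1.37 to 1.51 and 1.01 to 1.18. The call of Pfkfb2 was lost in 8 of them, so 2 to 3 genes were lower when single libraries were left out. At the stricter threshold 919 rows were higher and 836 lower, and 1 of the 8 genes was lower. The rows called without single libraries were 4087 to 4401 higher and 4162 to 4602 lower. Pfkfb4 changed sign without KO replicate 2 (0.01) or KO replicate 3 (0.0673), over a range of -0.13 to 0.07. Its share differed by -1.46 percentage points in shares of counts (exact permutation p = 0.0152) and by -4.16 points without the Pfkfb2 row (exact permutation p = 0.00216), an alternative chosen after seeing the data, as was the GENCODE length. Both change the denominator or the weights of the share by construction. The log2 ratio of the summed PFK level was 0.41 in FPKM, against -0.03 to 0.04 without single libraries, and the FPKM lengths are shorter for Pfkl and Pfkp but not for Pfkm. Replicate numbers occur in both groups. The deviations of same-numbered libraries correlated at -0.162 to 0.024, and 1 of 6 numbers had its best match in itself. These correlations cannot show whether same-numbered libraries came from one litter or preparation. With a replicate block 4123 rows were higher and 4110 lower, 4 and 3 of the 8 genes kept their calls (Pfkfb2 adjusted p = 0.04), and the shares of Pfkm, Pfkl, Pfkp, Pfkfb1, Pfkfb2 and Pfkfb3 had an exact p of 0.0312, the smallest that 6 pairs allow. Pfkfb1 and Pfkfb4, with as few as 44 and 99 counts in a library, are the least precise of the genes.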

Other observations

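Genes of the kinases that phosphorylate the PFKFB enzymes, among them the regulatory beta and gamma subunits of AMPK, were mixed in direction. Of 14 genes, 7 were higher in KO, 3 were lower and 4 did not pass, with a median log2 fold change of 0.09. Over all rows tested, 25.6% were higher and 25.5% lower. The regulatory beta subunits of AMPK, which scaffold the complex, moved in opposite directions: Prkab1 went from 42.9 ± 4.96 CPM (SD, n = 6) in WT to 23.3 ± 1.82 in KO (log2 fold change -0.88 ± 0.08, SE, adjusted p = 7.75e-08), and Prkab2 from 88.7 ± 6.14 to 172 ± 23.4 CPM (0.95 ± 0.08, SE, adjusted p = 9.02e-08). Neither subunit's groups overlapped, beside 14.9% of all rows tested with KO higher and 15.2% with KO lower.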
